A study of Mus musculus with 3 samples.

Results

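The regions described here are 4741 stretches of the mouse genome, between protein-coding genes, where a peak of MYC signal was called in Pan02 cells that stably express POH1-Flag and not in Pan02 cells with the vector. Pan02 is a mouse pancreatic cancer cell line. The rule took every MYC peak of the POH1-Flag cells on chromosomes 1 to 19 and X that overlapped no MYC peak of the vector cells and no Flag peak of the POH1-Flag cells. Its summit, the base of highest signal, had to lie outside every protein-coding gene and more than 1 kb from every gene end. These peaks are 20.9% of the 22647 MYC peaks of the POH1-Flag cells, and the 3 libraries of the series together list 37758 peaks. The regions were chosen by the authors' peak calls in these same libraries, so their presence in one list and absence from the others are a description and not a result.

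Libraries were made by CUT&Tag, where a transposase tethered to antibody on chromatin cuts and tags the DNA next to the protein. The groups are MYC in POH1-Flag cells, Flag in POH1-Flag cells and MYC in vector cells, with 1 library each and no treatment named in the labels. Nothing in the labels says which promoter drives POH1-Flag, what the vector carries, or whether the cells are 1 clone or a pool. With no replicate, no difference could be set against a spread between samples, no test was run, and every interval covers counting error within a library only.

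MYC is a transcription factor that pairs with MAX and binds the E-box CACGTG, mostly at the promoters of genes for growth and ribosome production. It also acts on genes read by RNA polymerase III, such as those for tRNAs and 5S rRNA, and at high levels it is found at distal enhancers, many of which carry sites for AP-1 factors. POH1 is a subunit of the proteasome lid, the product of Psmd14, and cuts ubiquitin chains off proteins as they enter the proteasome.

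Some of the regions lie where a lncRNA gene begins, and their DNA is shown because it holds, or lacks, the letters that MYC and AP-1 factors bind. RefSeq start windows of GRCm38.p6 run from 250 bases before to 50 bases after each annotated start. Summits of 46 regions fell in 50 of the 11574 windows, which belong to 48 lncRNA genes. The letters CACGTG, a palindrome that reads the same on both strands, stood in 7 of these 50 windows, which is 14% (Wilson 95% interval 6.95 to 26.2). They stood in 5.9% of all lncRNA windows. The 7 windows are 5 places, because 2 pairs of lncRNA genes share a start region. Counted by region, the letters stood at 5 of 46. Windows that share a region are not independent, so the interval over 50 windows is too narrow. The 4 windows below are those of the strongest of these places, written 5′ to 3′ on the strand of the gene with CACGTG in capitals.
Dleu2 (chr14:61682324-61682623, minus strand): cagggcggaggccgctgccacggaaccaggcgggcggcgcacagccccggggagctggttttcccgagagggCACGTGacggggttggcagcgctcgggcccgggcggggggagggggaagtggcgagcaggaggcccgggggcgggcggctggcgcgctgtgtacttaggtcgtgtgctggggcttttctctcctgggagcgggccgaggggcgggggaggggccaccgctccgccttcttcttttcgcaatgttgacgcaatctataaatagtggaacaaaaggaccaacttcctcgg
Gm15411 (chr5:149006693-149006992, minus strand): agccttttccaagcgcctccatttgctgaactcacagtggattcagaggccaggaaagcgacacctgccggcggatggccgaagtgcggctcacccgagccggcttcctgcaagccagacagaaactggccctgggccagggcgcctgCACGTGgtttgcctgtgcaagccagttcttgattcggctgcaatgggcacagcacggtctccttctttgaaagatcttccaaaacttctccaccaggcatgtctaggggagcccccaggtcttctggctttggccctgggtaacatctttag
9330159M07Rik (chr9:88858752-88859051, minus strand): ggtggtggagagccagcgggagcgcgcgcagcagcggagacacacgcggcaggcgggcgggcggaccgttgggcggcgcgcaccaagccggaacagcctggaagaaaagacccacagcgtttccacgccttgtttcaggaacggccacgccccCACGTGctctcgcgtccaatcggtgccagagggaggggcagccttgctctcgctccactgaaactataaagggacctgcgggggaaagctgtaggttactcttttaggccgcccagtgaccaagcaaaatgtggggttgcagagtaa
Gm36738 (chr15:78581540-78581839, minus strand): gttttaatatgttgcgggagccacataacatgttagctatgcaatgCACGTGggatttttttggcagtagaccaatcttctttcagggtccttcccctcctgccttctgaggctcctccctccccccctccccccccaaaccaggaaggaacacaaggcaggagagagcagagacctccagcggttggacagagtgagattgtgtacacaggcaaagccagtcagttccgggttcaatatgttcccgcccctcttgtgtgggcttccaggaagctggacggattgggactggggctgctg
At Dleu2, the host transcript of the miR-15 and miR-16 genes, the E-box letters begin 178 bases before the annotated start and the summit, with 16 reads, lies 243 bases before it. The summit at Gm15411 held 13 reads and lay 18 bases past the start, with the letters 102 bases before it. The region at 9330159M07Rik, which is also the start region of Gm26611 on the other strand, held 11 reads, with its summit 6 bases and its E-box 97 bases before the start. The one at Gm36738 held 10 reads, with its summit 153 bases and its E-box 204 bases before the start. The fifth place, Gm46609, held 7 reads.

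Other letters were counted in the same windows on both strands and set beside the 66 lncRNA windows that hold the summit of a shared intergenic MYC peak. Shared here means that a MYC peak of POH1-Flag cells overlaps a vector peak and no Flag peak. The pattern TGANTCA takes in the core that AP-1 factors bind, TGACTCA or TGAGTCA, but also forms with A or T in the middle. It stood in 10 of the 50 windows of the regions, which is 20% (11.2 to 33.0). It stood in 22.7% (14.3 to 34.2) of the shared intergenic windows and in 9.31% of all lncRNA windows. At Gm32011 the only match was TGATTCA. The forms were not counted apart, so the share of the AP-1 core itself is not known for any of these sets. CACGTG, at 14% in the regions, stood in 21.2% (13.1 to 32.5) of the shared intergenic windows. The E-box variant CACGCG stood in 8% (3.15 to 18.8) of the windows of the regions and in 18.2% (10.7 to 29.1) of the shared ones. The broader CANNTG, which includes CACGTG, stood in 76% against 78.8%. For each of these letters the interval of the regions overlaps that of the shared intergenic windows. Windows that share a region were counted apart, so the intervals of the regions are too narrow here too. Base composition differed as well, with a median G+C content of 54% and 7 CpG per window for the regions, against 57.8% and 14.5 CpG for the shared intergenic windows and 48.3% and 4 CpG for all lncRNA windows. The part of composition in these shares was not tested, and a match is only a run of letters.

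In strength the regions were mostly small peaks. The value used is the pileup, the number of sequenced fragments stacked over the summit, which was recovered as a whole number for every peak from the authors' fold enrichment and p-value. Pileups ran from 5 to 151 reads with a median of 10 and quartiles of 8 and 14. The local background, the number of reads expected at the summit, had a median of 1.31. At 905 regions (19.1%) this background was at the genome-wide minimum of 0.826 reads. Peak width had a median of 289 bp, and 23.8% of the regions were under 210 bp, close to the smallest width of 202 bp in the list. At 358 regions (7.55%) the pileup reached 20 reads, and at 64 it reached 30.

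Shared intergenic MYC peaks, which overlap a vector peak and no Flag peak and number 1860, had a median pileup of 21 reads and a median width of 577 bp. Those only with POH1-Flag but inside genes (4196) had a median of 12 reads, and those at gene ends (2846) a median of 14 reads. The regions' median −log10 q, as the authors' peak caller gave it, was 3.97, against 8.94 for the shared intergenic peaks. When the whole POH1-Flag MYC list was cut into 10 equal parts by −log10 q, the regions made up 42.5% of the weakest part and 0.353% of the strongest, where there were 8 of them. Their share was lower in each stronger part.

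**Figure D1:**
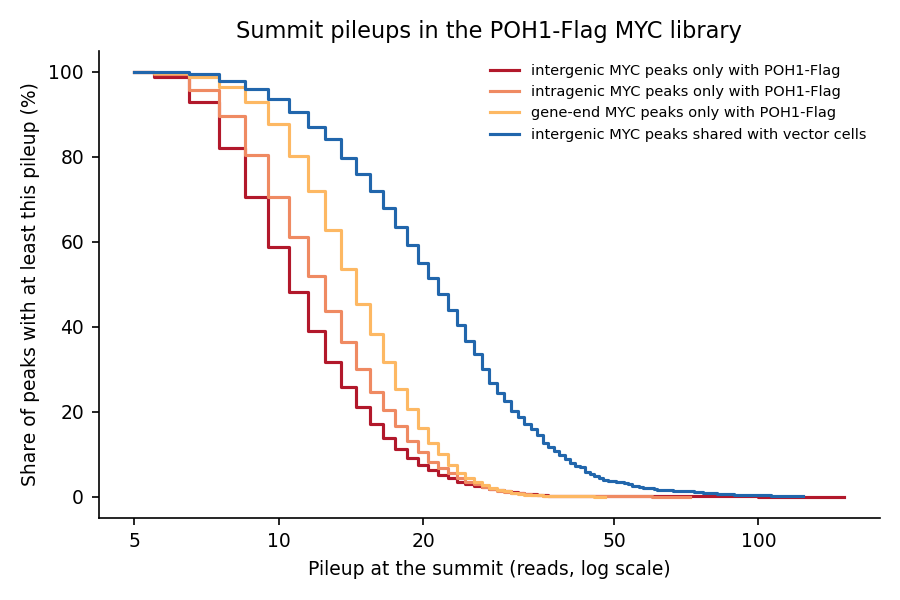
Share of peaks (%) with at least a given summit pileup (reads, log scale) in the MYC library of POH1-Flag cells, for intergenic, intragenic and gene-end peaks only with POH1-Flag and for intergenic peaks shared with vector cells. The line of the intergenic peaks only with POH1-Flag lies lowest up to about 20 reads, with a median of 10 reads against 21 for the shared intergenic peaks.

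The smallest pileup in the vector list was 6 reads, and the background of that library was 1.023 times that of the POH1-Flag MYC library. Scaled by that factor, 4688 regions (98.9%, 98.5 to 99.1) reached a pileup that the vector list could hold over its genome-wide background, and the 53 that did not are those with 5 reads. The regions were chosen by passing a nearly equal limit in their own list, so this share was fixed by the choice and says nothing about the vector cells. At 1840 pairs of shared intergenic sites the POH1-Flag pileup was higher in 87.9%, with a median ratio of 1.48 (1.45 to 1.495) to the vector pileup. Divided by that ratio as well, 3340 regions (70.4%, 69.1 to 71.7) had at least 6 whole reads, and 1401 fell under it. This share rests on the same chosen pileups and on the genome-wide background only. It too says nothing about the vector cells. The opposite class exists too, since 817 of 3450 intergenic vector peaks overlapped no MYC or Flag peak of the POH1-Flag cells. Those had a median pileup of 10 reads and a median width of 251 bp.

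Peaks only with POH1-Flag were intergenic in 40.2% (39.4 to 41.1) of 11783 cases, against 20.2% (19.4 to 21.1) of 9190 shared peaks. With peaks that also meet a Flag peak, 2385 (23.8%) of the 10010 peaks that overlap a vector peak were intergenic. Intergenic sequence as the rule defines it covers 59.1% of the chromosomes. The share of all POH1-Flag MYC peaks that overlapped no vector peak was 54.9%. A further 270 intergenic peaks without a vector peak overlapped a Flag peak and so are not among the regions.

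By the rule the regions overlap no vector or Flag peak, and their distances to such peaks varied widely. Their median distance to the nearest vector MYC peak was 58.4 kb (55.9 to 61.9), with 144 (3.04%) within 1 kb and 751 (15.8%) within 10 kb. The closest pair lay 0 and 5 bp from a vector peak without sharing a base. The nearest Flag peak was farther, with a median of 395 kb (378 to 411). The Flag list holds only 2936 peaks against 12175 in the vector list, and a shorter list leaves longer gaps. Of the regions 837 (17.7%) had another region within 12500 bp, which gave 386 chains, 335 of them pairs and 3 of them of 5 regions. The same share was 22.0% (20.2 to 23.9) for shared intergenic peaks.

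Distance to genes showed a graded pattern. The median region lay 38.7 kb (36.7 to 41.3) from the nearest protein-coding gene, against 20.9 kb (19.3 to 22.9) for shared intergenic peaks and 90.8 kb for all intergenic bases. Per Mb of intergenic sequence, 4.66 regions lay at 1 to 5 kb from a gene, 4.74 at 5 to 10 kb, 4.30 at 10 to 50 kb, 3.28 at 50 to 100 kb, 2.26 at 100 to 500 kb and 1.19 beyond. The shared intergenic peaks thinned out more steeply, at 2.75 per Mb at 1 to 5 kb and 0.208 per Mb beyond 500 kb. A total of 275 regions lay over 500 kb from any protein-coding gene. Just inside the 1 kb limit were regions 1009 bp from Spry2 with 18 reads and 1010 bp from Nog with 8 reads. Just outside it were peaks 998 bp from Chek1 with 12 reads and 973 bp from Arhgef12 with 14 reads.

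**Figure D2:**
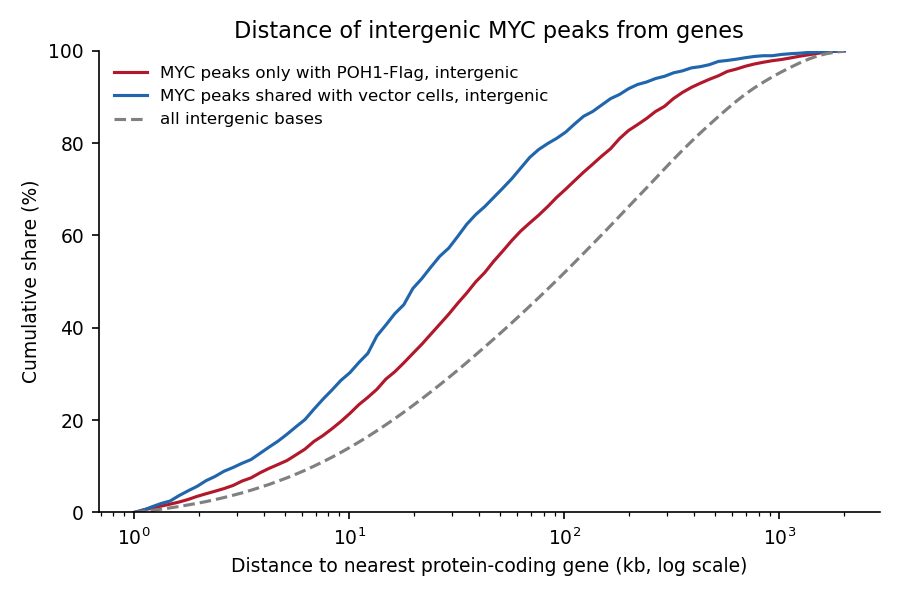
Cumulative share (%) by distance to the nearest protein-coding gene (kb, log scale) for intergenic MYC peaks only with POH1-Flag, those shared with vector cells, and all intergenic bases. The peaks only with POH1-Flag run between the shared peaks and the bases, with medians of 38.7, 20.9 and 90.8 kb.

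Density was lowest on the X chromosome. There were 3.08 regions per intergenic Mb over all chromosomes, with autosomes between 2.29 on chromosome 14 and 4.12 on chromosome 13. The X chromosome had 1.09 (exact Poisson interval 0.916 to 1.29). Shared intergenic peaks were sparser on the X too, at 0.170 per Mb against 1.21 over all chromosomes.

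**Figure D3:**
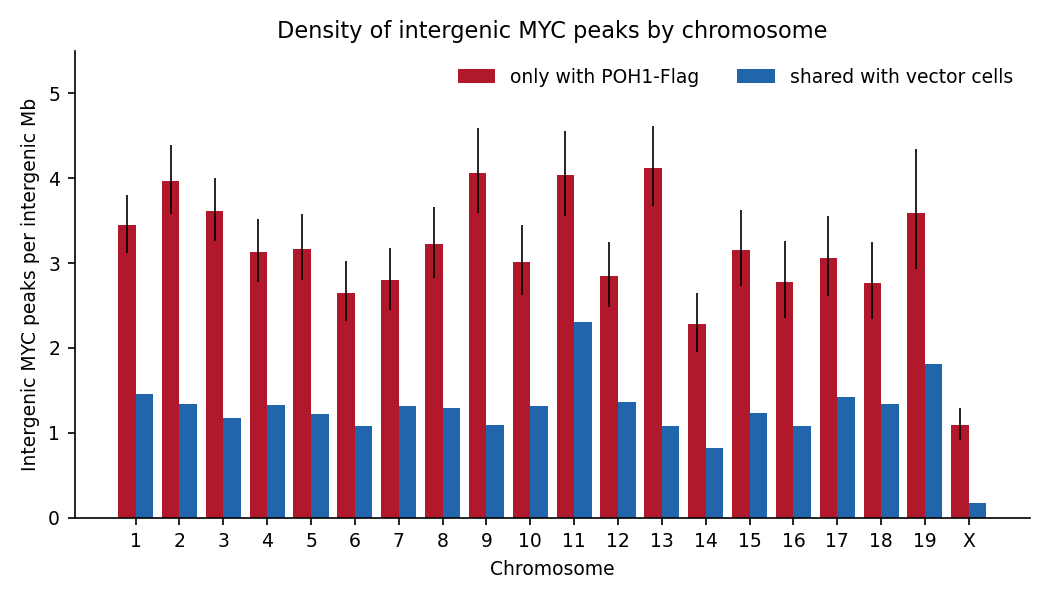
Intergenic MYC peaks per intergenic Mb on each chromosome, for peaks only with POH1-Flag (bars with exact Poisson 95% intervals) and peaks shared with vector cells. Chromosome X has 1.09 and 0.170 per Mb, the lowest bar of each kind.

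The 10 regions with the largest −log10 q were led by one 14.1 kb from Vps52, a subunit of a tethering complex for vesicles, which held 36 reads over a background of 3.45. Its summit lay 312 bp outside the lncRNA gene AA388235, and the nearest vector peak was 16.99 kb away. Next in rank was a region at the start of chromosome 9 with 151 reads over a background of 60.7, 331 kb from the nearest protein-coding gene, 0.480 kb from a vector peak and 0.466 kb from a Flag peak. Regions with such a background were few, since 89 (1.88%) had more than 6 reads. The others of the 10 lay in more ordinary background: 32 and 30 reads near Pcnx, 29 near Pfkfb3, 25 near Ddhd1, 30 near Cop1, 27 near Papss1, 19 near Cdh12 and 23 near Gm40514. Pfkfb3 makes a potent activator of glycolysis, and its region lay 6.54 kb from the gene and 36.9 kb from a vector peak. Cop1 encodes a ubiquitin ligase subunit, and its region, 38.5 kb from the gene, was 161 kb from a vector peak.

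Genes that make no protein lay within 1 kb of 1104 regions (23.3%, 22.1 to 24.5), counting pseudogenes. The same windows cover 15.7% of intergenic sequence and held 597 (32.1%) of the shared intergenic peaks. Of all 27923 such genes 3.63% had one of the regions within 1 kb. Most were lncRNA genes, beside 963 regions (20.3%, against 12.2% of the sequence). Pseudogenes were beside 74 (1.56%, against 2.44%).

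Regions within 1 kb of a tRNA gene numbered 28, or 0.591% (0.409 to 0.852), where such windows cover 0.0356% of intergenic sequence. Among shared intergenic peaks the number was 39 (2.10%, 1.54 to 2.85). Of 408 tRNA genes 132 (32.4%) had a MYC peak in POH1-Flag cells within 1 kb, 0 had a Flag peak (Wilson upper bound 0.933%), and 98 (24.0%) had a MYC peak in vector cells. A peak was there in POH1-Flag cells and not in vector cells for 41 tRNA genes, and in vector cells and not in POH1-Flag cells for 7. Over all non-coding genes and pseudogenes the same counts were 1405 of 3238 with a POH1-Flag MYC peak and 173. Among genes with such a peak, one only in POH1-Flag cells was thus not more frequent at tRNA genes. Of all 408 tRNA genes, 9.56% (7.07 to 12.8) had one of the regions within 1 kb, against 3.63% over all non-coding genes and pseudogenes. These are 39 genes beside 28 regions, so the genes are not independent and the interval is too narrow. The 28 regions held 6 to 31 reads with a median of 16 over backgrounds of 0.826 to 4.87, and in 22 of them the summit was within 300 bp of the tRNA gene. Chromosome 13 carried 11 of them.

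The strongest lay at n-TVaac7, a valine tRNA gene on chromosome 11, with 31 reads over 4.06 and its summit 132 bp away. Next came n-TTcgt5, a threonine tRNA gene on chromosome 16, with 24 reads, and n-TKctt26, a lysine tRNA gene on chromosome 1, with 22. The vector peak nearest to n-TVaac7's region was 30.2 kb off, that of n-TTcgt5's 67.6 kb and that of n-TKctt26's 0.577 kb. Among the 28, 13 had a −log10 q of at least 5. Many tRNA genes are near-identical copies, and how the authors placed reads that match several copies is not known here.

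A second gene class of RNA polymerase III lay in the 5S rRNA array on chromosome 8. The array, chr8:123538784-123622046, carries 48 annotated genes in 83.3 kb. Within it or at its edges the POH1-Flag MYC list had 11 peaks, of which 10 are among the regions, the Flag list had 0, and the vector list had 1. The 10 regions held 27 to 37 reads, with a median of 30.5, over backgrounds of 6.06 to 10.2. The vector peak held 27 reads over a background of 6.72, and the POH1-Flag peak that overlaps it held 35 over 9.57. The strongest regions lay at n-R5s124 with 37 reads, n-R5s117 with 36 and Gm22109 with 36. The copies are repeats of one gene, so reads cannot be tied to a copy with confidence, and all 8 regions within 1 kb of an rRNA gene have a background above 6 reads. Those 8 are 0.169% (0.0855 to 0.333) of the regions, where such windows cover 0.00654% of intergenic sequence.

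**Figure D4:**
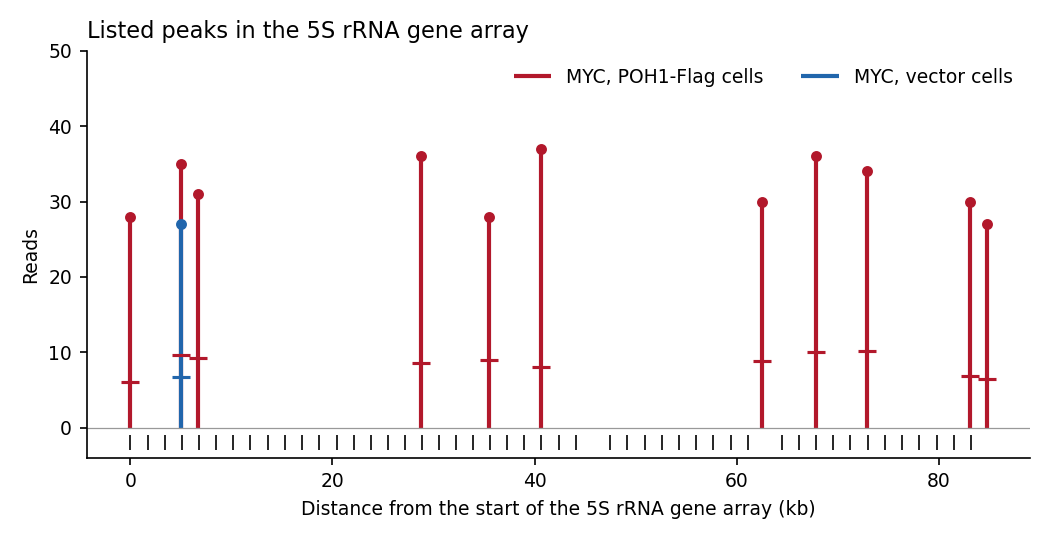
Peaks listed for MYC in POH1-Flag cells and in vector cells along the 5S rRNA gene array, by distance from the start of the array (kb). Stems with dots are pileups in reads, short bars are each peak's background in reads and ticks under the axis are annotated 5S genes. The 11 POH1-Flag peaks hold 27 to 37 reads, and the only vector peak holds 27.

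Small nuclear RNA genes, whose products work in splicing, gave the regions with the highest pileups beside any gene that makes no protein. A chain of 5 on chromosome 3, chr3:96485294-96494878, includes regions with 51 reads at Gm25890 and 47 and 44 at Gm22614. Its backgrounds were high, from 8.24 to 23.1 reads, and its nearest vector peak was 57.2 kb away. A pair on chromosome 1 lay at Gm24497 with 35 reads and Gm23472 with 32, and vector peaks were 1.11 and 0.877 kb off. In all, 9 regions (0.190%) lay within 1 kb of a snRNA gene, against 24 (1.29%) of the shared intergenic peaks. Such windows cover 0.0863% of intergenic sequence, and 0.798% of the 1003 snRNA genes had a region. Near snoRNA genes, whose products guide RNA modification, there were 11 (0.232%), against 13 (0.699%) of the shared peaks. Their windows cover 0.113% of intergenic sequence, and 0.821% of the 1340 genes had a region. Both gene shares are below the 3.63% over all non-coding genes, while both shares of regions are above the share of sequence covered. The rule allows no region inside a protein-coding gene. Gene shares were not adjusted for genes that lie there or for gene length. The gene shares of lncRNA genes (6.58%), tRNA genes (9.56%) and rRNA genes (12.7%, 6.58 to 23.1) are larger than 3.63% as counted. All 8 rRNA genes with a region lie in the 5S array, so they are not independent and that interval is too narrow. The snoRNA regions were led by Snora16a with 26 reads and Gm23446 with 26. The region of Snora16a is also the start of its host lncRNA gene Snhg12, with its summit 8 bases before the annotated start and 20.5 kb from a vector peak. One region lay at Scarna2, a guide RNA of Cajal bodies, with 21 reads.

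MicroRNA genes had 7 of the regions within 1 kb (0.148%, against 0.376% of shared intergenic peaks), where such windows cover 0.0399% of intergenic sequence. Of the 1228 microRNA genes 0.651% had a region, against 3.63% of all non-coding genes, again without adjustment for genes inside protein-coding genes. The genes nearest to all 7 had mature sequences in RefSeq. The strand usually studied is shown for 4 of those with the largest pileups, with the seed, bases 2 to 8, in capitals, because the seed sets which messages a microRNA meets. No seed is shared among the 4.
miR-760-3p (chr3:122293615-122293634, minus strand): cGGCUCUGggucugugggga
miR-125b-5p (chr9:41581940-41581961, plus strand): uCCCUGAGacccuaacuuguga
miR-206-3p (chr1:20679055-20679076, plus strand): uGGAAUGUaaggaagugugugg
miR-203-3p (chr12:112130927-112130948, plus strand): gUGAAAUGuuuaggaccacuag
The region at Mir760 held 16 reads and was the same one that lies 248 bp from the arginine tRNA gene n-TRtct2. At Mir125b-1 there were 14 reads, at Mir206, a muscle microRNA, 13, and at Mir203, known from skin epithelium, 13. The vector peaks nearest to these regions were 15.02, 39.5, 64.8 and 163 kb away.

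The other large chains lay far from genes or between them. One on chromosome 9, chr9:61655363-61670886, has 5 regions with 11 to 24 reads between Tle3, a Groucho-family corepressor, and Rplp1, a ribosomal stalk protein. It was 168 kb from the nearest vector peak and its regions were 237 to 247 kb from the nearer gene. One on chromosome 4 between Arhgef19 and Epha2, a receptor tyrosine kinase, has 4 regions with 32 to 44 reads, of which the strongest covers the start of the lncRNA gene Gm13056. One on chromosome 9 between Amotl2, which restrains YAP, and the Wnt receptor gene Ryk has 4 regions with 6 to 22 reads.

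By nearest gene, 3313 regions (69.9%) lay within 100 kb of 2558 genes, which is 11.8% of the 21631 protein-coding genes. Of these genes 548 had 2 or more, and 40 had 4 or more. With no limit on distance, the most regions were nearest to Thbs1 and Zeb2 (13 each), Tbl1xr1 (12), Tle3 (10), Nfib and Sugct (9 each), and Ccnd1, Myc, Otol1 and Map3k7 (8 each). Such counts grow with the length of empty sequence around a gene. Those of Zeb2, a repressor of epithelial genes, reached 1266 kb away with 7 to 15 reads. Those of Thbs1, which encodes the matrix protein thrombospondin-1, held 6 to 18 reads, and 12 of the 13 lay 138 to 380 kb from it.

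Ccnd1, which encodes cyclin D1 of the cell cycle, had 7 of its 8 regions within 100 kb. They held 34 reads at 2.36 kb, then 15, 16, 13, 19, 14 and 12 with growing distance up to 85.9 kb, and their vector peaks were 0.491 to 30.5 kb away. The 8 regions nearest to Myc itself were smaller, with 8 to 17 reads at 1.67 to 669 kb. Vector peaks lay 1.20 to 155 kb from them. Id2, which encodes an inhibitor of basic helix-loop-helix factors and is a target of BMP and TGF-beta signals, was chosen after its values were seen. Its 5 regions within 100 kb held 31 reads at 2.71 kb, 16 at 14.6 kb, 10 at 59.5 kb, 15 at 69.7 kb and 26 at 85.6 kb. All 5 were 364 to 446 kb from the nearest vector MYC peak.

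Lists of genes by pathway were then set against all genes, as regions per Mb of intergenic sequence nearest to the list's genes within 100 kb. Over all genes the rate was 4.15 per Mb. Among the 18 lists the rate ran from 0 for acinar markers to 12.52 for immediate early genes. The lists were chosen with earlier results known and were not tested for enrichment, and regions near one gene are not independent, so the exact Poisson intervals cover counting error only. The rate depends on how close the sequence is to genes, which was not matched between lists.

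**Figure D5:**
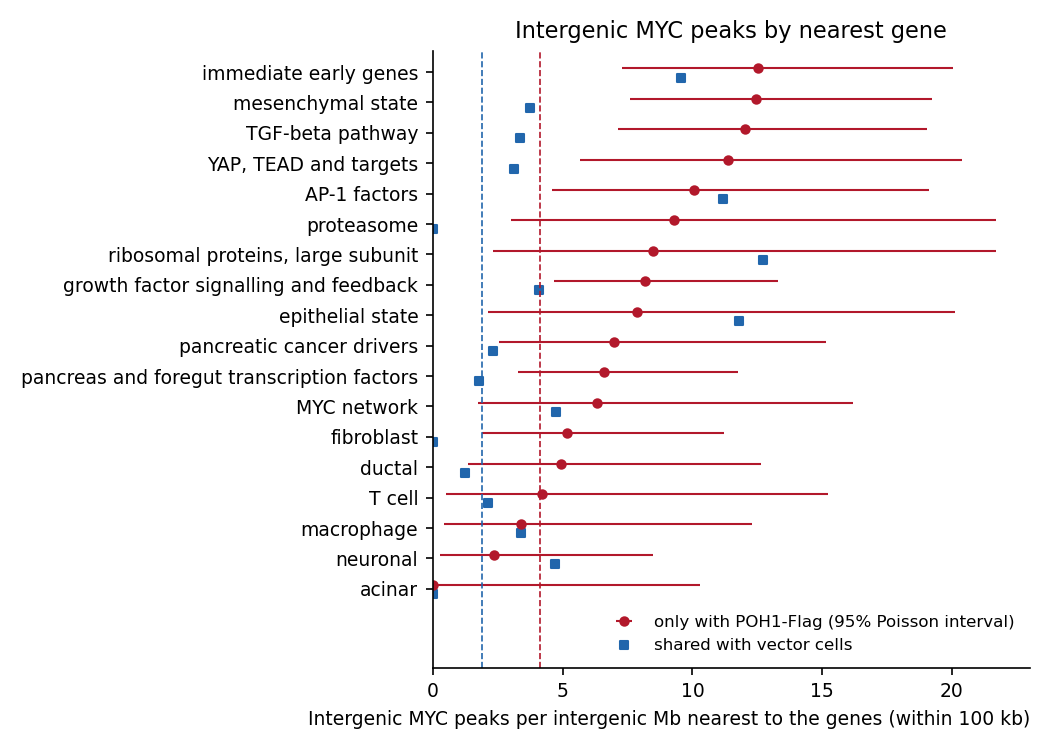
Intergenic MYC peaks per intergenic Mb nearest to the genes of each list within 100 kb, for peaks only with POH1-Flag (dots with exact Poisson 95% intervals) and peaks shared with vector cells (squares). Dashed lines are the rates over all protein-coding genes, 4.15 and 1.91 per Mb. The highest dot is that of immediate early genes at 12.52, and the lowest that of acinar markers at 0.

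Immediate early genes, which switch on within minutes of a growth signal, had a region near 10 of 18, with 12.52 per Mb (7.29 to 20.04). The largest held 31 reads near Zfp36l2, an mRNA decay factor, 31 near Ier2 and 17 near Klf10. Ier2's region lay 1.36 kb from the gene and 0.196 kb from a vector peak. Vector peaks lay 1.59 kb from the region near Zfp36l2 and 72.4 kb from that near Klf10. Shared intergenic peaks were dense beside these genes too, at 9.57 per Mb against 1.91 over all genes. AP-1 factors had a region near 7 of 17, with 10.1 per Mb (4.60 to 19.1) and 11.2 shared peaks per Mb. Junb had one with 50 reads over a background of 16.4, Fosl2 one with 28 over 8.08 and Atf3 one with 19 over 3.47. The nearest vector peaks were 3.18, 1.47 and 1.91 kb away.

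Genes of the mesenchymal state, which mark cells that have lost epithelial contacts, had a region near 10 of 21, with 20 regions and 12.46 per Mb (7.61 to 19.2). Their shared intergenic peaks came to 3.74 per Mb. Snai1, a repressor of E-cadherin, had a region with 30 reads at 32.2 kb, and a vector peak lay 4.57 kb from it. Lox, which crosslinks collagen, had one with 21 reads at 5.84 kb, and its nearest vector peak was 710 kb away. Tgfbi, a matrix protein induced by TGF-beta, had 5, the largest with 19 reads at 27.3 kb and 59.7 kb from a vector peak.

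For the TGF-beta pathway the count was 6 of 20 genes and 18 regions, with 12.04 per Mb (7.14 to 19.03), against 3.34 shared peaks per Mb. After Id2 came Smurf2, a ubiquitin ligase for SMAD proteins and receptors, with 21 reads over 7.03, and the inhibitory SMAD gene Smad6 with 20 over 1.78. Of the YAP list 7 of 19 genes had a region, with 11.4 per Mb (5.69 to 20.4) against 3.11 shared peaks. Ccn1, a matricellular protein and standard YAP target, had one with 25 reads, Amotl2 one with 22 and the phosphatase gene Ptpn14 one with 20. Growth factor genes had one near 11 of 22, with 8.19 per Mb (4.68 to 13.3) against 4.10 shared peaks. The largest were 27 reads near Hbegf, an EGF receptor ligand, 22 near the MAP kinase phosphatase gene Dusp4 and 18 near Spry2, an inhibitor of receptor signalling.

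The other 12 lists rested on 0 to 11 regions each, and their shares of genes stand beside 11.8% over all genes. By rate they ran from 0 to 9.30 regions per Mb, with proteasome genes highest (3.02 to 21.7). Each of these 12 intervals includes the 4.15 per Mb over all genes. Pancreatic cancer drivers had a region near 4 of 20 genes (20%), of which Tgfbr2 had 3, the largest with 35 reads at 43.6 kb. A vector peak lay 2.67 kb from that largest region. Kdm6a had one with 12 reads and Acvr1b one with 11. Transcription factors of the pancreas and foregut had one near 7 of 16 (43.8%, 23.1 to 66.8), with 21 reads 40.4 kb from Hes1 and 15 reads 75.6 kb from Foxa2. Their rate was 6.58 per Mb (3.28 to 11.8). The MYC network had one near 3 of 13 (23.1%). These held 12 reads 38.4 kb from Myc, 10 reads 57.5 kb from Max and 9 reads 26.8 kb from Mycn. Epithelial genes had one near 4 of 17 (23.5%), led by Krt18 with 15 reads and Cldn3 with 13. Large ribosomal subunit genes, classic MYC targets, had one near 4 of 24 (16.7%). The largest held 18 reads 4.85 kb from Rpl11, 16 reads 1.87 kb from Rpl13 and 13 reads 90.8 kb from Rpl14. Proteasome genes had one near 3 of 31 (9.68%), a share below that over all genes, although their rate per Mb was above it. The region nearest to Psmc6 held 12 reads at 4.4 kb. Those nearest to Psma1 and to Psmd7, which encodes the lid partner of POH1, held 6 each, at 35.3 and 26.4 kb.

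Among markers of cell types, acinar genes had a region near 0 of 14 (Wilson upper bound 21.5%). Ductal genes had one near 4 of 15 (26.7%), with 12 reads 27.5 kb from Spp1. Fibroblast genes had one near 5 of 15 (33.3%, 15.2 to 58.3), with 18 reads 98.0 kb from Thy1. Shares of genes grow with the intergenic sequence around them. Per Mb the fibroblast rate was 5.16 (1.89 to 11.2), an interval that includes the 4.15 over all genes. T cell genes had one near 2 of 14 (14.3%), and macrophage and neuronal genes near 2 of 15 each (13.3%). The share over all genes was 11.8%. For the labelled pancreatic cells, MYC peaks at the gene ends themselves were listed at 6 ductal genes in POH1-Flag cells and 3 in vector cells, and at 0 acinar genes in both. The same counts were 2 and 1 for macrophage genes, 1 and 0 for fibroblast genes, and 0 in both for T cell and neuronal genes. No share over all genes stands beside these counts. Peaks of MYC do not measure expression, so these counts check the cell type only loosely, and the level of POH1 itself cannot be read from these libraries.

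Depth was close in the 3 libraries. Genome-wide background per kb gave a relative depth of 1.06 for MYC and 1.05 for Flag in POH1-Flag cells, against 1 for MYC in vector cells. The lists hold 22647, 2936 and 12175 peaks over 11.2, 1.08 and 5.52 Mb.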

How the data were processed

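CUT&Tag libraries of MYC and Flag in POH1-Flag cells and MYC in vector cells were used as the authors' deposited peak lists, 1 list per library with no header. The submitters' processing notes name BWA 0.7.17-r1188 and MACS2 2.2.7.1, with FastQC 0.11.9 and Trim Galore 0.6.6, on GRCm38/mm10. Roles, parameters, any control library, and how duplicate or multiply matching reads were handled: not given in the sources used here. The deposited values are peak positions in bp, a score that is 10 times the −log10 q, the authors' fold enrichment as a linear ratio, and −log10 p with −log10 q at each summit as the authors' caller gave them. Fold and q were used only within a list.

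Pileups k and backgrounds λ were found by solving (k + 1)/(λ + 1) = fold together with the Poisson tail beyond k, and were whole for 100% of peaks within 0.01. Overlap meant 1 bp. Genes came from the RefSeq GRCm38.p6 table, which has no strand. Intergenic sequence was measured on a 50 bp grid. Shares carry Wilson 95% intervals, rates exact Poisson intervals and medians order-statistic intervals, for counting error only. Retained PCR duplicates would narrow them falsely. The 18 gene lists had 328 entries, and 326 matched by symbol. Python 3.11.15, numpy 2.4.6, pandas 2.3.3, scipy 1.17.1 and matplotlib 3.10.9 were used, and the steps were tested on simulated data.

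The regions and lists were chosen with earlier results of these data known. The text names the 10 regions with the largest −log10 q, up to 3 with the largest pileup in each class of non-coding gene, the 5 largest chains, the 10 genes nearest to most regions, up to 3 genes per list by pileup and those at the 1 kb limit. An item that this rule picks is not reported here. Mir203, n-TRtct2, Gm46609 and the other lncRNA windows, Id2 as a gene with many regions, and the array were picked after their values were seen. Peaks only with POH1-Flag on the Y chromosome (22) and on unplaced contigs (157) were left out by the rule. Alternatives were stricter thresholds, other overlap and distance limits and equal list lengths.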

Additional observations from a re-analysis of the deposited data

How the results depend on the processing

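The number of regions depends on the peak threshold. Against 4741, it was 1531 with −log10 q of 5 or more, 184 with 10 or more, 1598 for folds from 5 upward, and 1113 when the POH1-Flag MYC list was limited to as many peaks as the vector list. Other overlap, gene and contig rules gave 3637 to 4919. With −log10 q of 5 or more the median distance was 43.8 kb to a vector peak and 31.4 kb to a gene, the share beside non-coding genes was 27.0% and the chained share 10.1%. For folds from 5 upward these shares were 24.7% and 5.19%. With a 5 kb gene limit the distances were 64.8 and 49.2 kb. Non-coding windows of 5 kb gave 32.9%, and chain gaps of 5 and 25 kb gave 7.87% and 27.4%. Genes nearest to a region came to 10.1% within 50 kb and 14.2% with no limit. Added after seeing the data were the share that would have passed the vector list after division by the ratio of shared sites, 82.1% or 79.0% over the local background where the Poisson tail was taken between whole reads and 70.4% in whole reads, the count at tRNA genes with −log10 q of 5 or more, which was 13, and the count at rRNA genes without regions of over 6 background reads, which was 0. The cause of these shifts was not tested beyond the smaller sets themselves. No paired analysis was possible because each group has 1 library, and for the same reason no replicate could be left out. At a median of 10 reads, single regions carry wide counting error.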

Other observations

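Immunoglobulin and T cell receptor loci, annotated as long spans in a class with few other genes, held regions outside any protein-coding gene. The class had 14 regions (0.295%) and covers 0.571% of intergenic sequence. On chromosome 12 the Igh locus, which encodes the antibody heavy chain, had its largest regions at 17, 14 and 14 reads, and 1 of those with 14 reads lay in the constant segment Ighg2b, 118 kb from the nearest vector peak. On chromosome 6 the light chain locus Igk had 1 with 13 reads over a background of 0.869, and its nearest vector peak was 851 kb away. The T cell receptor loci Tcrb and Tcra had regions of 6 to 11 reads. Among V segment genes 0 of 394 had a region within 1 kb (Wilson upper bound 0.966%). Inside a predicted gene, Gm14408 on chromosome 2, a region with 22 reads over a background of 1.62 lay 1018 kb from the nearest vector peak.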
